A study of Rattus norvegicus with 12 samples.

Results

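The dystrophin-glycoprotein complex joins the actin cytoskeleton of muscle cells, through the cell membrane, to laminin in the basement membrane. Dystrophin and its relative utrophin bind actin on the inner side, dystroglycan and the sarcoglycans cross the membrane, and syntrophins and dystrobrevins bind to dystrophin in the cytoplasm. In the heart the complex lies along the sarcolemma and at costameres, where it protects the membrane during contraction, and loss of dystrophin or of a sarcoglycan causes cardiomyopathy. Its genes were picked by name as Dmd, Utrn, Dag1, Sgca, Sgcb, Sgcd, Sntb1, Dtna and Lama2, which gave 9 of the 32545 genes in the deposited table.

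The 12 libraries came from the myocardium of neonatal Sprague-Dawley (SD) rats, as RNA of the left ventricular (LV) or right ventricular (RV) free wall. Volume overload (VO) was made at postnatal day 1 by a fistula that joins the abdominal aorta to the inferior vena cava, and the other rats had a sham operation at the same age. Tissue was taken at postnatal day 7, with 3 libraries from each ventricle after sham operation (sham LV and sham RV) and after fistula surgery (VO LV and VO RV). The study asked how the ventricles differ at baseline and how each responds to VO. The labels do not say whether the replicates are separate animals, or whether an LV and an RV library share an animal, so p values measure the spread between these libraries, part of which may be technical. The fistula loads both ventricles of an animal, so no VO RV library stands for an RV whose LV was unloaded.

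The reads on genes, recovered from the FPKM, numbered 14121713 to 16871371 per library, and mitochondrial transcripts took 14.4% to 26.2% of them. Cardiomyocyte markers were high throughout, with summed levels of 8934 to 13513 FPKM (fragments scaled to transcript length and to sequencing depth) over 7 genes. The RV libraries sham RV replicate 1 and VO RV replicate 2 stood apart by 4 atrial markers, whose sum was 440 and 1522 FPKM there and 148 to 199 FPKM in the other 4 RV libraries. VO RV replicate 2 also had the highest fibroblast sum, 1921 FPKM over 5 genes. The Y-linked genes summed to 56.0 to 64.2 FPKM in 5 libraries (sham LV replicates 1 and 2, sham RV replicates 1 and 2, VO RV replicate 3) and to between 0 and 0.0343 FPKM in the other 7, among them all 3 VO LV libraries. The libraries of sham LV, of sham RV and of VO RV thus differed in this signal, so each of these groups holds more than 1 animal. Sex and VO therefore cannot be told apart in the LV beyond 1 sham library without Y-linked signal.

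Dystrophin itself has several start sites. The long muscle and brain products start far upstream, and short products start near the 3′ end of the gene. The deposited level of Dmd is 1 value per gene and does not separate them. The 250 bases before 2 of the 3 listed starts of Dmd (the third overlaps the second) are shown for this reason, with those before the start of Sgcd, the complex gene with the largest log2 difference between the sham ventricles, and of Sgca, which had the smallest there. They are from RefSeq on build GRCr8, which is not stated to be the build of the deposited values, and run 5′ to 3′ with matches of 5 searched motifs in capitals.
Dmd, upstream start, chrX:51205836-51206085, plus strand: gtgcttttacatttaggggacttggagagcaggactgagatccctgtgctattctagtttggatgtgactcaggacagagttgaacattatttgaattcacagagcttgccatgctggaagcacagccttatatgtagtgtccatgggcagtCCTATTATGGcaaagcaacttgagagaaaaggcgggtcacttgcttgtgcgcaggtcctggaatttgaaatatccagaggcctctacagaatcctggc
Dmd, downstream start, chrX:53278763-53279012, plus strand: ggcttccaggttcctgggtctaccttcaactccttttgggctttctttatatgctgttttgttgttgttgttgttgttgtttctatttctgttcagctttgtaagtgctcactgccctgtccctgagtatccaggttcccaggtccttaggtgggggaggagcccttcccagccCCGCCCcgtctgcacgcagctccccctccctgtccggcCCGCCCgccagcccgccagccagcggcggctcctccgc
Sgcd, chr10:32254941-32255190, minus strand: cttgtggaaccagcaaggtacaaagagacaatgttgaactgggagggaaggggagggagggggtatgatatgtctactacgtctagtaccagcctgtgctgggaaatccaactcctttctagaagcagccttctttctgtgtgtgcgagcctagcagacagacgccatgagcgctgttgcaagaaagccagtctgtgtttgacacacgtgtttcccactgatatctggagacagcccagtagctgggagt
Sgca, chr10:80416076-80416325, minus strand: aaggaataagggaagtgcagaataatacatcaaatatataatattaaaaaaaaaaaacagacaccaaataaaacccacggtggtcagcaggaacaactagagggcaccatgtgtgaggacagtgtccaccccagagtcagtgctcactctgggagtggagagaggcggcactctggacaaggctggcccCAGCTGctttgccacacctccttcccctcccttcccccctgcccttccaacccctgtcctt

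The upstream Dmd window lay 136.0 kb inside the outermost RefSeq limits of the gene and held a CArG box, CCTATTATGG, that began 98 bases before the start. CArG boxes were found on either strand in 1.5% of 33469 such windows. The downstream Dmd window, 2208.9 kb inside the gene, held 2 GC boxes (GGGCGG, read on the minus strand), a motif of 30.5% of windows. The GC content of these windows was 46.8% and 59.6%, against a median of 51.2% over all windows. The Sgca window held 1 CAGCTG, an E-box found in 12% of windows, 61 bases before the start. None of the 5 motifs searched on both strands (the CArG box, the MEF2 motif, CATTCC as the M-CAT motif, the E-box and the GC box) was in the Sgcd window, which lay 574.6 kb inside the outermost limits of its gene. Windows were listed for 7 of the 9 genes, and a match is a match of letters only.

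On the scale of FPKM, which is per length and allows genes to be compared, the complex genes spanned a wide range. Sgca (alpha-sarcoglycan) had the highest mean over the 12 libraries with 86.8 FPKM, followed by Dag1 (dystroglycan) with 76.5 and Sgcb (beta-sarcoglycan) with 47.6. Sgca was above Dag1 in only 8 of 12 libraries, so these neighbours did not separate. Lama2, which encodes the alpha-2 chain of laminin, had a mean of 31.1 FPKM, Utrn 12.7 and Dmd 10.5. Each of Dag1, Sgcb, Lama2, Utrn and Dmd was above the next gene in 12 of 12 libraries. Dtna (alpha-dystrobrevin) averaged 6.25 FPKM, Sgcd (delta-sarcoglycan) 4.91 and Sntb1 (beta-1-syntrophin) 4.80. Sgcd exceeded Sntb1 in 7 of 12 libraries. The lowest genes rest on the fewest reads, with 58 to 259 reads per library for Sgcd, 103 to 444 for Sntb1 and 240 to 835 for Dtna, against 1506 to 3320 for Dmd. The highest library exceeded the lowest 4.38-fold for Sgcd and 1.48-fold for Sgca.

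**Figure D1:**
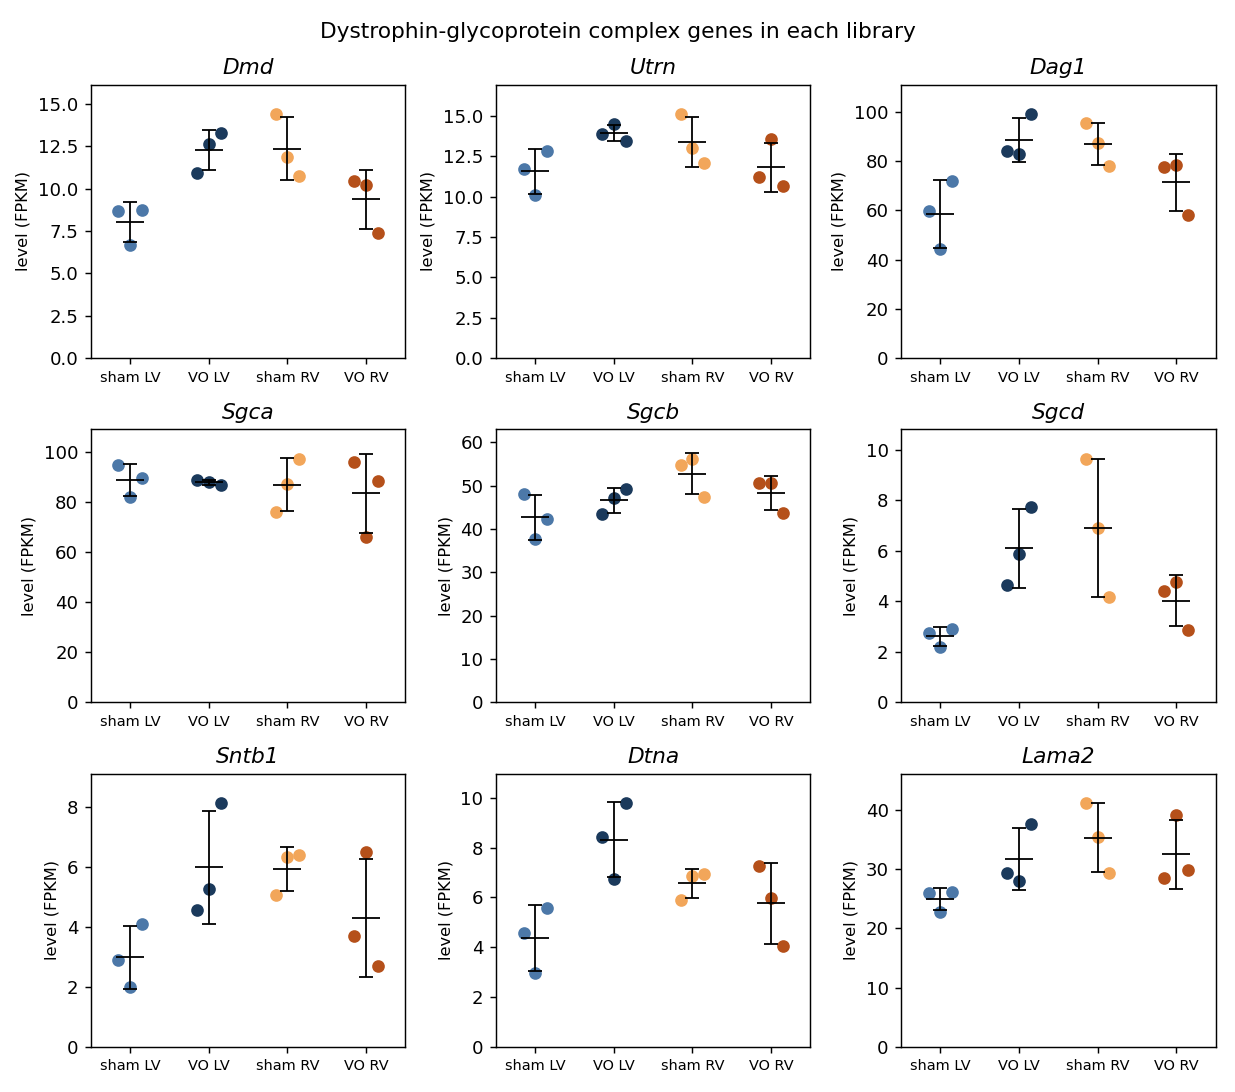
Level of each complex gene in FPKM (vertical axis, from 0) in the 3 libraries of each group, with points for libraries, the wide horizontal mark for the mean and the bar for 1 SD. For Dmd all 3 sham LV libraries (6.65 to 8.71 FPKM) sit below all sham RV and VO LV libraries, whereas for Sgca the groups overlap.

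Between the sham ventricles, 8 of the 9 genes had a negative mean log2 difference of LV against RV, with a median of −0.58 against 0.01 over all 13910 tested genes. Sgcd was the 1 complex gene that was differentially expressed, by the criteria of an adjusted p value below 0.05 and more than a 1.3-fold change, as were 3.85% of all tested genes. At an unadjusted p under 0.05 and the same fold change, 6 of the 9 genes were lower in the LV (17.8% of all tested genes in either direction), and the libraries of the groups did not overlap for the same number of genes (32.2%). Without sham LV replicate 2, 4 of the 9 passed the unadjusted and fold thresholds. The complex genes other than Sgca vary together across libraries, so these are not 9 independent results. Sham LV replicate 2 was the lowest of the 12 libraries for all of them but Sgca, and it had the lowest share of mitochondrial reads (14.4%, against 26.2% and 23.8% in the other sham LV libraries), whose part was not tested. Among endothelial markers, all 4 tested were higher in the sham LV, Kdr and Tie1 significantly (log2 differences 0.42 and 0.54, limma adjusted p = 0.0432 and 0.0332; the calls were lost on leaving out any 1 of 9 and of 6 of the 12 libraries), and the summed level was 297 to 319 FPKM in sham LV and 221 to 241 in sham RV. The 3 red blood cell markers, none differentially expressed, also had higher values in the sham LV. All 3 passed the unadjusted and fold thresholds, with log2 differences of 0.88 for Hbb, 0.68 for Alas2 and 0.62 for Slc4a1 (limma adjusted p = 0.170, 0.141 and 0.190). Their sum was highest of the 12 libraries in sham LV replicate 2 (4782 FPKM). All 5 mural and smooth muscle markers were higher in the sham LV too (median log2 difference 0.35), and all 5 fibroblast markers were lower (−0.20). No gene of these lists passed the unadjusted and fold thresholds. The mural sums were 418 to 517 FPKM in sham LV and 354 to 383 in sham RV. The part of these marker groups in the differences of the complex genes was not tested. In RNA of whole tissue, fewer cells of a type and less RNA per cell cannot be told apart.

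Dmd lies on chromosome X from 51286737 to 53519259 as the deposited table lists it, on a build not given in the sources used here. Utrn and Lama2 lie on chromosome 1, Sntb1 on 7, Dag1 on 8, Sgca and Sgcd on 10, Sgcb on 14 and Dtna on 18. Dmd measured 8.66, 6.65 and 8.71 FPKM in the sham LV libraries and 14.4, 11.9 and 10.8 FPKM in the sham RV libraries. The ventricles did not overlap. The log2 difference was −0.59 (SE 0.16, n = 3 per group), which did not pass the threshold in limma (adjusted p = 0.0584) and was −0.47 without sham LV replicate 2. Utrn, which can stand in for dystrophin at the membrane, was closer between the ventricles, with 11.7, 10.1 and 12.9 FPKM in sham LV and 15.1, 13.0 and 12.1 FPKM in sham RV, a log2 difference of −0.21 (SE 0.12, limma adjusted p = 0.297) that was −0.12 without sham LV replicate 2 or without sham RV replicate 1. The ratio of Dmd to Utrn, computed after their levels had been seen, was 0.659 to 0.738 in sham LV and 0.890 to 0.953 in sham RV.

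Dag1, whose product is cut into the laminin-binding and the membrane-spanning part of dystroglycan, measured 59.8, 44.3 and 71.9 FPKM in sham LV and 95.6, 87.5 and 78.2 FPKM in sham RV. The ventricles did not overlap here either, with a log2 difference of −0.59 (SE 0.17, limma adjusted p = 0.0719).

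The sarcoglycans, which form 1 subcomplex beside dystroglycan, were not alike. Sgcd (chromosome 10, 32062946 to 32471454 in the deposited table) measured 2.76, 2.20 and 2.88 FPKM in sham LV and 9.64, 6.88 and 4.18 FPKM in sham RV. No sham LV library reached the lowest sham RV library, and the log2 difference of −1.19 (SE 0.27, n = 3 per group) passed the threshold in limma (adjusted p = 0.0429). The call was lost without sham LV replicate 1 (adjusted p = 0.0839), 2 (0.145) or 3 (0.0559), without sham RV replicate 1 (0.154) or 2 (0.121), and without VO LV replicate 1 (0.0576) or 2 (0.0624), which enter through the shared spread. Without sham RV replicate 1, the sham RV library with the highest atrial markers, the log2 difference was −0.93. Sgcb was 42.7 ± 5.19 FPKM in sham LV and 52.8 ± 4.73 in sham RV (SD, n = 3 each), with overlapping libraries and a log2 difference of −0.31 (limma adjusted p = 0.112). Sgca was 88.8 ± 6.44 and 87.0 ± 10.6 FPKM, and its log2 difference of 0.03 had a 95% interval of −0.26 to 0.33.

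The cytoplasmic partners leaned the same way as Dmd. Sntb1, an adaptor that binds dystrophin and signalling proteins, measured 2.89, 1.99 and 4.08 FPKM in sham LV and 5.07, 6.34 and 6.40 FPKM in sham RV. Dtna, which binds dystrophin and syntrophins, measured 4.55, 2.96 and 5.57 FPKM and 5.91, 6.86 and 6.94 FPKM. Neither overlapped between the ventricles, and neither passed the threshold, with log2 differences of −0.92 (SE 0.30, limma adjusted p = 0.0918) and −0.58 (SE 0.23, limma adjusted p = 0.150). Without sham LV replicate 2 that of Dtna was −0.35. For the extracellular ligand Lama2, the levels were 26.0, 22.8 and 26.1 FPKM in sham LV and 41.1, 35.4 and 29.3 FPKM in sham RV. They did not overlap, at a log2 difference of −0.48 (SE 0.16, limma adjusted p = 0.0931).

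Under the influence of VO, 8 of the 9 genes were higher in the LV than in sham LV, with a median log2 difference of 0.59 against −0.02 over all tested genes. None of the 9 was differentially expressed in limma, against 0.0935% of all tested genes, and 1 (Dtna) was with voom on the reads recovered from the FPKM, against 2.44% of all tested genes there. By the unadjusted and the fold threshold together, 5 of the 9 were higher (15.7% of all tested genes in either direction), namely Dmd, Dag1, Sgcd, Sntb1 and Dtna. The libraries of VO LV and sham LV did not overlap for 7 of the 9 (32.4%). This comparison uses the same sham LV libraries as the one between the sham ventricles, so a low sham LV library enters both. No marker of fibroblasts (5 tested), endothelial cells (4) or red blood cells (3) passed the unadjusted and fold thresholds. The fibroblast sums were 785 to 964 FPKM in VO LV and 1026 to 1031 in sham LV, and the endothelial sums 252 to 282 and 297 to 319 FPKM, both without overlap. The red blood cell sums were 1658 to 2405 and 2113 to 4782 FPKM, with overlap. The part of these markers was not tested.

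Dmd measured 10.9, 12.6 and 13.3 FPKM in VO LV, all above the sham LV libraries, at a log2 difference of 0.59 (SE 0.16, limma adjusted p = 0.0778). Among the libraries without Y-linked signal, Dmd was 8.71 FPKM in the 1 sham LV library and 10.9 to 13.3 in the 3 VO LV libraries. Utrn measured 13.9, 14.5 and 13.4 FPKM in VO LV, above all sham LV libraries by a small margin, with a log2 difference of 0.27 (SE 0.12, limma adjusted p = 0.210) that was 0.18 without sham LV replicate 2. The ratio of Dmd to Utrn was 0.788 to 0.986 in VO LV and 0.692 to 0.933 in VO RV, a range that overlapped with those of the other 3 groups.

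Dag1 measured 84.2, 83.0 and 99.2 FPKM in VO LV, all above the highest sham LV library, at a log2 difference of 0.62 (SE 0.17, limma adjusted p = 0.0825). Sgcd measured 4.64, 5.89 and 7.74 FPKM in VO LV. Its lowest VO LV library lay above its highest sham LV library, and the log2 difference of 1.06 (SE 0.27) was the largest of the 9 genes (limma adjusted p = 0.0709). Sgcb was 46.6 ± 2.94 FPKM in VO LV, a log2 difference of 0.13 (95% interval −0.11 to 0.37). It was 0.05 without sham LV replicate 2 and 0.22 without sham LV replicate 1. Sgca was 87.9 ± 1.03 FPKM, a log2 difference of −0.01 (95% interval −0.31 to 0.29).

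Dtna measured 8.42, 6.76 and 9.78 FPKM in VO LV, above all sham LV libraries, at a log2 difference of 0.89 (SE 0.23, limma adjusted p = 0.0722). Sntb1 measured 4.58, 5.27 and 8.13 FPKM in VO LV, again without overlap, at a log2 difference of 0.91 (SE 0.30, limma adjusted p = 0.117). Lama2 measured 29.3, 28.0 and 37.6 FPKM, also above all sham LV libraries, at a log2 difference of 0.33 (SE 0.16, limma adjusted p = 0.237) that was 0.20 without VO LV replicate 3. VO LV replicate 3 was the highest VO LV library for Dmd, Dag1, Sgcb, Sgcd, Sntb1, Dtna and Lama2.

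In the RV, all 9 genes had a mean log2 difference below 0 between VO and sham, with a median of −0.21 against 0.00 over all tested genes. None was differentially expressed in limma or with voom, nor was any tested gene in limma (0%). The study, which used DESeq2 at the same thresholds, reported differentially expressed genes for VO in both ventricles, so the 0% belongs to this fit. Of all tested genes, 4.91% passed the unadjusted threshold together with the fold threshold. Dmd and Sgcd were the 2 complex genes that did, and the count was 0 without sham RV replicate 1, sham RV replicate 2 or VO RV replicate 3. Dmd measured 10.5, 10.2 and 7.37 FPKM in VO RV, below every sham RV library, and was the 1 complex gene without overlap (12.5% of all tested genes). Its log2 difference was −0.39 (SE 0.16, limma adjusted p = 0.579). Sgcd measured 4.42, 4.76 and 2.88 FPKM in VO RV and overlapped with sham RV, at a log2 difference of −0.67 (SE 0.27, limma adjusted p = 0.579). VO RV replicate 3 was the lowest VO RV library for Dmd, Utrn, Dag1, Sgcb, Sgcd, Sntb1 and Dtna. Without it the log2 differences of Dmd and Sgcd were −0.23 and −0.47, and without sham RV replicate 1 that of Sgcd was −0.40.

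The remaining complex genes overlapped between VO RV and sham RV. Dag1 measured 77.6, 78.6 and 58.2 FPKM in VO RV, at a log2 difference of −0.29 (95% interval −0.67 to 0.09) that was −0.15 without VO RV replicate 3. Sntb1 measured 3.69, 6.50 and 2.70 FPKM, with a log2 difference of −0.49 and a wide 95% interval of −1.16 to 0.17. It was −0.24 without VO RV replicate 3 and −0.81 without VO RV replicate 2. Dtna measured 7.28, 5.96 and 4.04 FPKM, with a log2 difference of −0.21 that turned to 0.01 without VO RV replicate 3. Utrn, Sgcb, Sgca and Lama2 differed by −0.18, −0.12, −0.07 and −0.12 on the log2 scale. With 1 library left out, these values ran from −0.28 to −0.09, −0.20 to −0.05, −0.18 to 0.09 and −0.26 to −0.003. Lama2 measured 28.4, 39.1 and 29.9 FPKM in VO RV, with its highest VO RV and sham RV libraries (39.1 and 41.1 FPKM) in the 2 libraries that had the highest fibroblast sums, 1921 and 1343 FPKM. Sgca measured 96.3, 65.9 and 88.5 FPKM in VO RV, with its lowest library of the 12 in VO RV replicate 2, which also had the lowest cardiomyocyte sum (8934 FPKM). Between VO RV and sham RV, 3 of 4 macrophage markers were higher, 2 of them by the unadjusted and fold thresholds (median log2 difference 0.35). All 5 fibroblast markers were higher, none by these thresholds (median 0.17). Of the 7 cardiomyocyte markers 3 were higher (median −0.20). The part of these cell markers in the levels was not tested.

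When the overloaded ventricles were compared, none of the 9 genes was differentially expressed in limma (0.00719% of all tested genes) or with voom, and the median log2 difference of LV against RV was 0.32 against 0.01 over all tested genes. Dmd (0.39, SE 0.16, limma adjusted p = 0.408) and Dtna (0.51, SE 0.23, limma adjusted p = 0.430) passed the unadjusted and the fold threshold, as did 7.40% of all tested genes. Without VO RV replicate 3 their values were 0.23 and 0.30, and without it or without VO LV replicate 3 none of the 9 passed these thresholds. Dmd and Dag1 did not overlap between VO LV and VO RV (16.1% of all tested genes). Dmd, Utrn, Dag1, Sgcd, Sntb1 and Dtna thus had the higher mean level in the RV after the sham operation and in the LV under VO. The means of Utrn were 11.6 and 13.4 FPKM in sham LV and sham RV, and 13.9 and 11.8 FPKM in VO LV and VO RV. Of the fibroblast markers, 4 of 5 passed the unadjusted and fold thresholds with lower levels in VO LV than in VO RV (median log2 difference of the 5 genes −0.56), and their part was not tested.

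**Figure D2:**
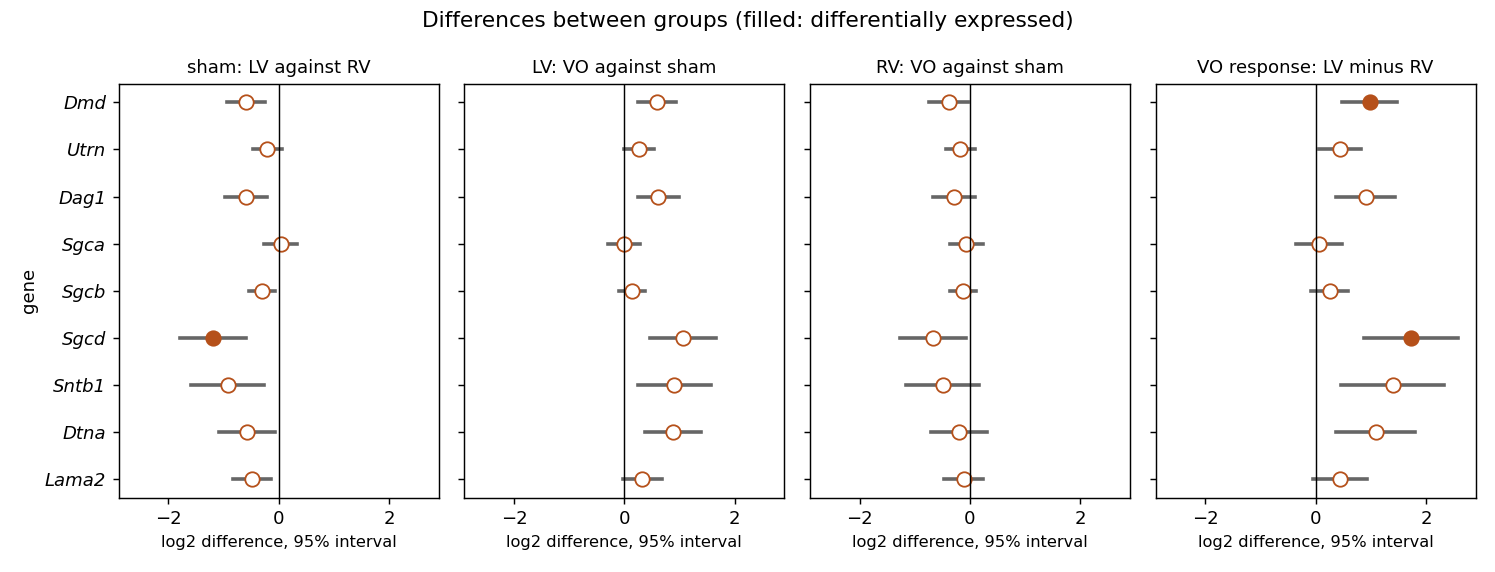
Log2 differences of the 9 complex genes (points) with 95% intervals (lines) in 4 comparisons, on a log2 scale with the line at 0. Filled points are differentially expressed in limma, which holds for Sgcd between the sham ventricles (−1.19) and for Dmd (0.98) and Sgcd (1.73) in the difference between the VO responses.

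The response to VO was then compared between the ventricles, as the log2 difference of VO against sham in the LV minus that in the RV. All 9 genes had a value above 0, with a median of 0.91 against −0.04 over all tested genes. Dmd and Sgcd were differentially expressed in this sense, as were 4.19% of all tested genes. By the unadjusted and fold thresholds, 6 of the 9 were higher (23.1% of all tested genes in either direction), and these were Dmd, Utrn, Dag1, Sgcd, Sntb1 and Dtna. Markers of some other cell types had values of the opposite sign without a differentially expressed gene, as all tested genes of the macrophage (4), fibroblast (5), endothelial (4) and red blood cell (3) lists were below 0, with medians of −0.54, −0.37, −0.28 and −0.51. By the unadjusted and fold thresholds 2 macrophage genes and 1 fibroblast gene were lower, and the part of these markers was not tested.

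The responses of Dmd differed by 0.98 (SE 0.23, limma adjusted p = 0.0410), made up of an LV response of 0.59 and an RV response of −0.39. The call was lost without sham LV replicate 1 (limma adjusted p = 0.0688) or 2 (0.0834), sham RV replicate 1 (0.103) or 2 (0.0826), VO LV replicate 1 (0.0571), 2 (0.0736) or 3 (0.116), or VO RV replicate 3 (0.0883), while the log2 value stayed between 0.82 and 1.07. With the Y-linked level as a covariate the value was 0.94 (limma adjusted p = 0.0672). The responses of Sgcd differed by 1.73 (SE 0.39, limma adjusted p = 0.0379), from an LV response of 1.06 and an RV response of −0.67. Here the call was lost without sham LV replicate 1 (limma adjusted p = 0.0715) or 2 (0.0828), sham RV replicate 1 (0.0882) or 2 (0.0843), VO LV replicate 2 (0.0690) or 3 (0.110), or VO RV replicate 3 (0.0925), at log2 values of 1.47 to 2.02 over the 12 libraries left out in turn. Without both RV libraries with high atrial markers, a check added after the data had been seen, the values were 0.94 for Dmd and 1.60 for Sgcd (limma adjusted p = 0.0850 and 0.0774). With the atrial marker level as a covariate in all 12 libraries, the values were 1.01 and 1.78 (limma adjusted p = 0.0252 and 0.0224), and Dag1 passed the threshold too (0.93, limma adjusted p = 0.0420), but this fit called 8.72% of all tested genes.

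The other genes missed the threshold for the difference between responses. Dag1 reached 0.91 (SE 0.24, limma adjusted p = 0.0586), Sntb1 1.40 (SE 0.43, 0.0803), Dtna 1.09 (SE 0.33, 0.0768) and Utrn 0.44 (SE 0.17, 0.140). Lama2 had a value of 0.44 with a 95% interval of −0.05 to 0.93. Sgcb had 0.26 (−0.08 to 0.60) and Sgca 0.06 (−0.36 to 0.47).

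**Figure D3:**
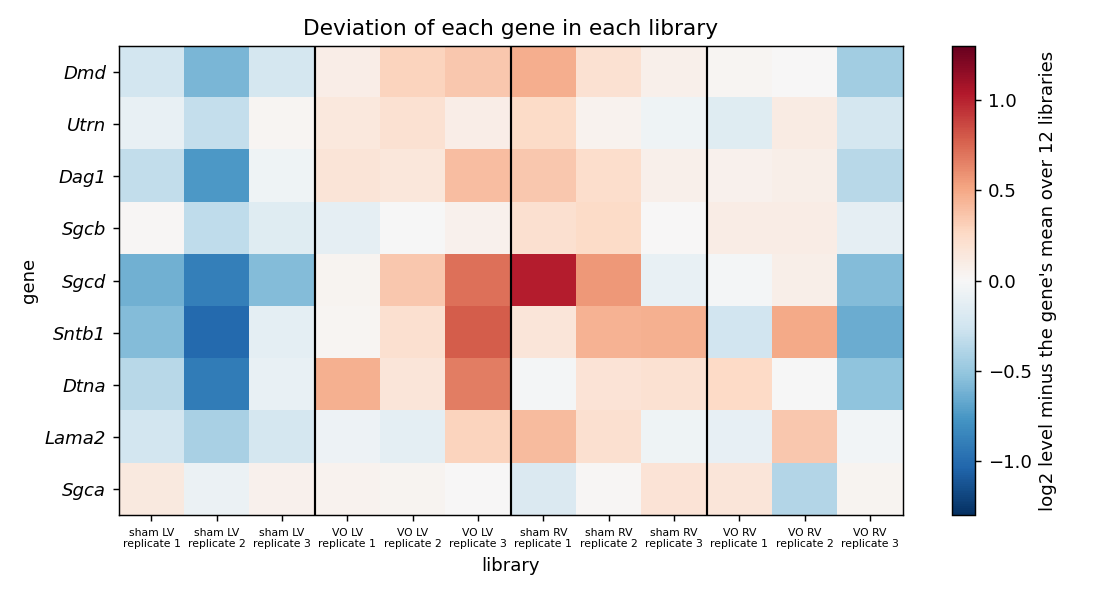
Log2 level of each complex gene (rows) in each of the 12 libraries (columns, by group) minus the mean of that gene over the 12 libraries, in color from blue (lower) to red (higher). Sham LV replicate 2 is the lowest of the 12 libraries for the first 8 genes shown and VO RV replicate 3 is low for most of them, while the row of Sgca differs from the others.

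Across the 12 libraries, the log2 level of Dmd followed Sgcd (Pearson r = 0.955, Spearman rho = 0.937) and Dag1 (r = 0.9495, rho = 0.951) most closely among the complex genes. Utrn had r = 0.854, Sntb1 0.828, Dtna 0.816, Sgcb 0.760 and Lama2 0.717. Of all tested genes, 99.3% had a lower r with Dmd than Sgcd did, 99.1% than Dag1, 94.1% than Utrn and 86.3% than Lama2. Sgca did not follow Dmd (r = −0.117, rho = −0.224). These are descriptions over 12 libraries of 4 groups, which share group differences, and 11381 other genes gave values as high as 0.985. The 5 genes with the pattern most like that of Dmd were Akap6, an anchoring protein of the nuclear envelope of cardiomyocytes (r = 0.985), Gpam, an enzyme of glycerolipid synthesis (0.983), Alpk2, an alpha-kinase (0.982), Zfp106, a zinc finger protein (0.982) and Myocd, a transcriptional coactivator of heart and smooth muscle (0.982).

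Ratios between the complex genes on the FPKM scale were chosen after the levels had been seen and are given without a test. The ratio of Sgcd to Sgca was 0.0268 to 0.0321 in sham LV, 0.0429 to 0.127 in sham RV, 0.0523 to 0.0893 in VO LV and 0.0325 to 0.0723 in VO RV. The ratio of Dag1 to Dmd was 6.66 to 8.25 in sham LV and 6.64 to 7.37 in sham RV, with overlap. It was 6.57 to 7.69 in VO LV and 7.41 to 7.89 in VO RV, the latter without overlap with sham RV. The ratio of Sgcb to Sgca was 0.460 to 0.507 in sham LV and 0.487 to 0.719 in sham RV, also with overlap.

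The complex genes differ greatly in genomic span, the distance from the first to the last base of the gene, and over all tested genes the differences moved with span. Dmd spans 2232.5 kb, Lama2 651.9, Utrn 518.2, Sgcd 408.5, Sntb1 272.7 and Dtna 186.1 kb, whereas Sgcb, Sgca and Dag1 span 15.5, 14.2 and 12.7 kb. Spearman's rho between span and the log2 difference across the 13910 genes, which are not independent, was −0.27 for sham LV against sham RV and 0.25 for the difference between the VO responses. The 50 tested genes that span over 500 kb had median log2 differences of −0.45 and 0.48 in these comparisons. Dmd, at −0.59 and 0.98, lay beyond both medians, and Utrn, at −0.21 and 0.44, lay nearer 0 than both. After the trend with span was removed from each library, a step added after the data had been seen, Dmd differed by −0.13 between the sham ventricles and by 0.39 between the responses (limma adjusted p = 0.409 and 0.107). Utrn turned to 0.08 between the sham ventricles. Lama2 came to −0.17 between the sham ventricles, 0.04 for VO in the LV and 0.04 between the responses, from −0.48, 0.33 and 0.44. Sgcd kept its calls at −0.93 and 1.39 (limma adjusted p = 0.0459 and 0.0384). Dag1, a short gene, moved little, to −0.63 and 0.95 (limma adjusted p = 0.0700 and 0.0615).

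**Figure D4:**
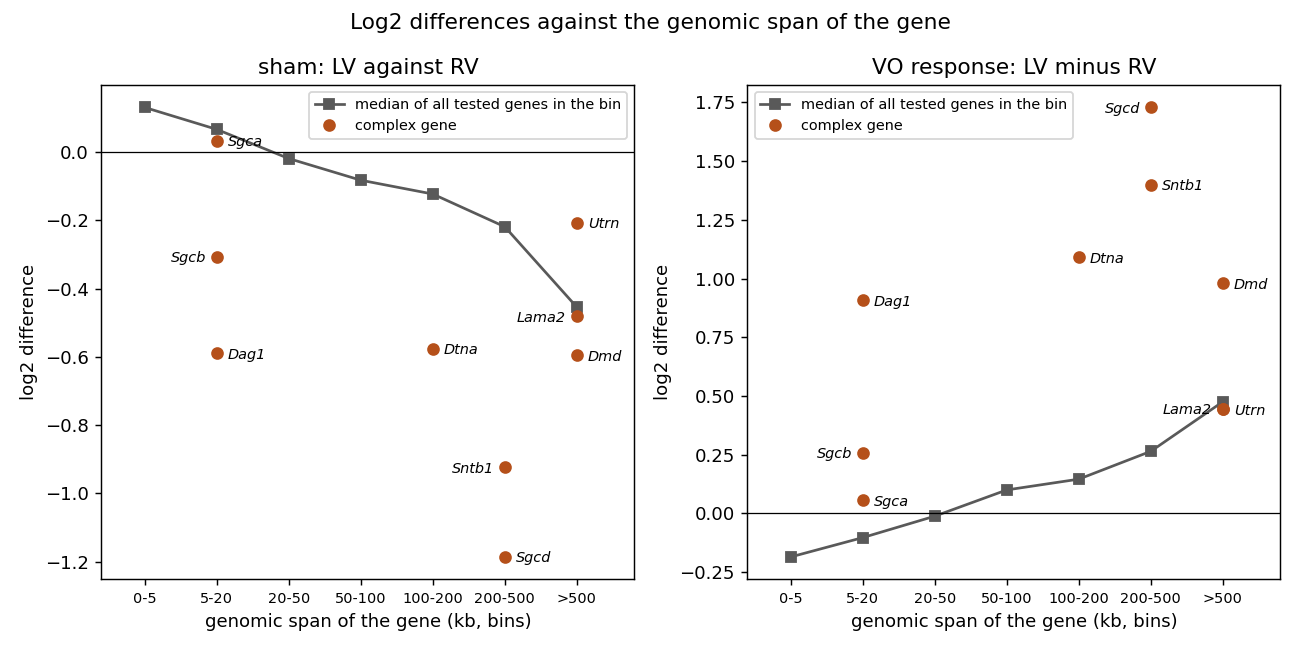
Log2 difference (vertical axis) against genomic span in 7 bins (kb, horizontal axis), for sham LV against sham RV and for the VO response in the LV minus that in the RV. Squares are medians of all tested genes in a bin, which run from 0.13 to −0.45 and from −0.19 to 0.48, and circles are the 9 complex genes.

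Other genes of the complex were read from a list of 12, of which 8 were tested. Their median log2 difference was −0.13 between the sham ventricles, −0.07 for VO in the LV, −0.05 for VO in the RV and 0.10 between the responses. Above 0 were 3, 3, 4 and 4 of the 8, so these genes did not all move with the 9 above. Sspn, which encodes sarcospan, a small membrane protein that binds the sarcoglycans, was the 1 that was differentially expressed. Sspn was called between the sham ventricles and between the responses, beside 3.85% and 4.19% of all tested genes. It measured 18.1, 9.43 and 24.9 FPKM in sham LV and 63.3, 48.2 and 40.9 FPKM in sham RV. The groups were far apart, at a log2 difference of −1.59 (SE 0.38, limma adjusted p = 0.0455). Under VO it measured 48.3, 50.8 and 61.9 FPKM in the LV and 43.5, 40.6 and 16.5 FPKM in the RV. The responses of Sspn differed by 2.38 (SE 0.54, limma adjusted p = 0.0392), more than those of any of the 9 genes above. Both calls of Sspn were lost on leaving out any 1 of 8 of the 12 libraries, at limma adjusted p of up to 0.165 between the sham ventricles and 0.112 between the responses, and the direction stayed the same. The syntrophin Sntb2 was lower in VO RV than in sham RV at an unadjusted p only (log2 difference −0.59, limma adjusted p = 0.570). Sgce (epsilon-sarcoglycan), named after its values were seen, had a mean level of 22.8 FPKM and a log2 difference of 0.25 between the sham ventricles (limma adjusted p = 0.2999).

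The laminin chains and other ligands of dystroglycan gave no differentially expressed gene in limma among 8 tested of 12 listed, and 0 of the 8 passed the unadjusted and fold thresholds in either ventricle under VO or between the sham ventricles. Between the responses, 1 of the 8 passed the unadjusted and fold thresholds with a value above 0 and 1 with a value below 0. The latter was Agrn (agrin), with a difference of −0.43 (limma adjusted p = 0.176). The median log2 difference of the 8 genes between the sham ventricles was −0.01, against −0.48 for Lama2. Of the enzymes that build the sugar chain by which dystroglycan binds laminin, 16 of 17 were tested and none was differentially expressed in limma. Large, which extends this chain, had a log2 difference of −0.42 between the sham ventricles, at an unadjusted p under 0.05 (limma adjusted p = 0.0756), and of 0.44 between the responses (limma adjusted p = 0.157).

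Of 18 genes of integrin adhesions and costameres, which connect the same membrane sites to the sarcomere, all were tested. Ank2 and Ank3, ankyrins that anchor membrane proteins to spectrin, were differentially expressed between the sham ventricles (log2 differences −1.21 and −0.65, limma adjusted p = 0.0459 and 0.0431), 2 of 18 beside 3.85% of all tested genes. The responses to VO differed for 4 of the 18, beside 4.19% of all tested genes, by 1.69 for Ank2, 0.92 for Ank3, 1.37 for Tln2 (talin 2) and 1.06 for Lims1, a partner of integrin-linked kinase (limma adjusted p = 0.0474, 0.0410, 0.0398 and 0.0440). Each of the 4 was lost on leaving out any 1 of 8 of the 12 libraries. These were all but sham LV replicate 3, sham RV replicate 3 and VO RV replicates 1 and 2. The sham calls of Ank2 and Ank3 were lost on leaving out any 1 of 9 and of 8 of the 12. The direction stayed the same each time. All of these calls were also lost with the replicate number as a block (limma adjusted p = 0.0758 to 0.0919). With the span trend removed, Ank2 and Ank3 lost their sham calls at −0.95 and −0.40 (limma adjusted p = 0.0519 and 0.0546). The 4 kept theirs between the responses, at 1.34 for Ank2, 0.59 for Ank3, 1.14 for Tln2 and 0.98 for Lims1. The median of the 18 genes was −0.19 between the sham ventricles, 0.20 for VO in the LV, −0.16 for VO in the RV and 0.31 for the difference between the responses. These medians have the sign of those of the complex genes and are smaller in each of the 4 comparisons, which was not tested. Among 7 cardiomyocyte markers, Ryr2, the calcium release channel of the sarcoplasmic reticulum, was differentially expressed between the sham ventricles (−0.94, limma adjusted p = 0.0356) and, with Myh6, the alpha-myosin heavy chain, between the responses (1.61 and 0.89, limma adjusted p = 0.0249 and 0.0319). The calls of Ryr2 were lost on leaving out any 1 of 6 of the 12 libraries in both comparisons, and that of Myh6 on leaving out any 1 of 8. The 7 markers did not move as 1 group. The troponin genes Tnni3 and Tnnt2, named after their values were seen, had sham LV levels above those of sham RV by 0.57 and 0.31 on the log2 scale (limma adjusted p = 0.104 and 0.273), and the sum of the 7 genes was 12768 to 13513 FPKM in sham LV and 10833 to 12474 in sham RV. For VO in the LV, Tnni3 had a log2 difference of −0.45 (limma adjusted p = 0.200).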

How the data were processed

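Libraries were made from poly-A RNA of both free walls with the NEBNext Ultra kit. The authors aligned the reads, counted them per gene and deposited FPKM for 32545 genes in 12 libraries; the labels name HISAT2 2.0.5, featureCounts 1.5.0-p3, StringTie 1.3.3b and DESeq2 1.20.0 in the submitters' processing notes. Genome build, annotation release and strand setting are not given in the sources used here. The strand setting being unknown, reads of a gene and of an overlapping gene on the other strand cannot be told apart.

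The deposited FPKM were rescaled by median-ratio size factors and log2(FPKM + 0.5) was used, so log2 differences of low genes are understated. Genes averaging 0.5 FPKM or more (13910) entered the test in 1 limma model of the 4 groups (limma 3.58.1 with an intensity trend, R 4.3.3), with Benjamini-Hochberg adjustment over all of them. All 9 complex genes passed this filter. With 3 libraries against 3, an exact two-sided permutation test of 1 gene cannot go below 0.10, so no such p is printed. FPKM times gene length gave whole reads (100% of values under 200 reads within 0.02), which served voom as an alternative. The procedure was tested on simulated data, and after 2 failed runs its acceptance criteria were loosened; it missed many of the 2-fold changes there.

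The complex genes, the gene lists and the alternatives were chosen with earlier results of these data known. Beside the 9 genes, the text names up to 5 differentially expressed genes of a list, otherwise up to 3 with an unadjusted p under 0.05 and a mean FPKM of at least 1, and the 5 genes most correlated with Dmd. A few genes picked in this way are not reported here. The motifs, ratios and span bins were chosen after values had been seen. Sequences are from RefSeq (GRCr8). Marker lists were also read for mural cells, macrophages, Schwann cells, skeletal muscle and red blood cells, in which no gene was differentially expressed in any comparison. The alternatives were FPKM as deposited, pseudocounts of 1 and 0.1, quantile normalization, no filter except a level above 0, a filter at 1 FPKM, a separate fit of 6 libraries, the replicate number as a block, gene length or genomic span trends removed, voom, array weights, covariates for atrial markers and Y-linked genes, and libraries left out.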

Additional observations from a re-analysis of the deposited data

Results flagged for a closer look

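The response to VO differed between the ventricles for Dmd and Sgcd, by the test of the difference itself. For Dmd the log2 response in the LV exceeded that in the RV by 0.98 (limma adjusted p = 0.0410), with all 3 VO LV libraries above all 3 sham LV libraries and all 3 VO RV libraries below all 3 sham RV libraries. For Sgcd the difference was 1.73 (limma adjusted p = 0.0379), with all 3 VO LV libraries above the sham LV libraries and overlap in the RV. Both comparisons contain sham LV and sham RV, and Sgcd differed between these without VO. The call of Dmd was lost in 14 and that of Sgcd in 11 of 26 alternatives, with the same direction each time. With the trend of genomic span removed, the value of Dmd was 0.39 (limma adjusted p = 0.107).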

How the results depend on the processing

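The 27 alternatives gave 1206 comparisons of a log2 difference of a complex gene with its value in the report, of which 1111 kept direction and side of the threshold, 38 lost a call, 24 gained one and 33 changed sign. Sgcd between the sham ventricles lost its call in 13 of 27 alternatives, and between the responses Dmd lost it in 14 and Sgcd in 11 of 26, each time with the same direction. FPKM as deposited, quantile normalization, pseudocounts of 1 and 0.1 and a mean FPKM of at least 1 left the counts as they were, 1 complex gene between the sham ventricles and 2 between the responses. With all genes above 0, the replicate block, the Y-linked covariate or both RV libraries with high atrial markers left out (chosen after seeing the data), the counts were 0 and 0. Of all genes tested, 0.0370% and 0.0972% were called with all genes above 0, 0.0216% and 0.00719% with the block and 0.0648% and 0.0144% without both RV libraries, but 3.44% and 1.27% with the Y-linked covariate. They were 0 between the sham ventricles in the separate fit (2.26% of all tested genes) and with the atrial covariate (2.47%), which gave 3 between the responses (Dmd, Dag1 and Sgcd, beside 8.72%), and 1 between the responses with the gene length (2.85%) or the genomic span trend removed (3.99%), the latter chosen after seeing the data. Voom gave 2 between the sham ventricles, 1 for VO in the LV and 3 between the responses (Dmd, Dag1 and Sgcd), where it called 4.92%, 2.44% and 5.78% of all tested genes. Array weights gave 5, 3 and 4, beside 9.497%, 5.06% and 7.51% of all tested genes. With 1 library left out, the counts ran from 0 to 2 between the sham ventricles, 0 to 3 for VO in the LV and 0 to 4 between the responses, beside 0 to 6.27%, 0 to 3.99% and 0 to 7.21% of all tested genes. Where no complex gene was called, these shares were at most 1.24%, 1.27% and 0.827%. The causes were not tested, except that all genes above 0 adjusts over more genes and leaving out libraries over fewer samples.

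The replicate numbers were not taken as pairs, since the labels give no pairing and same-numbered libraries had deviations that correlated from −0.218 to 0.123 over the comparisons. In the sham comparison the correlations were 0.0446, 0.0377 and 0.123, 4 of 6 libraries correlated best with their own number, and the Y-linked sums of same-numbered libraries were alike (63.0 and 64.2, 64.1 and 62.1, 0 and 0 FPKM), so shared animals there remain possible. Replicate 3 of VO LV lacked the Y-linked signal that replicate 3 of VO RV had. With the replicate block the log2 differences of Dmd and Sgcd between the responses stayed 0.98 and 1.73, with limma adjusted p = 0.0753 and 0.0745, and that of Sgcd between the sham ventricles −1.19 with 0.0812.

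The changes of sign were as follows. Sgca between the sham ventricles (0.03) became −0.0084 with quantile normalization, −0.00087 and −0.0026 with the length and span trends removed, −0.054 with the atrial covariate and −0.061 without both atrial-high RV libraries. For VO in the LV (−0.01) Sgca became 0.0050, 0.011, 0.017 and 0.0088 with quantile normalization, length, span and atrial covariate. Between the overloaded ventricles (0.09) Sgca became −0.038 with the atrial covariate and −0.068 without both RV libraries, which also gave 0.00017 for VO in the RV and −0.0069 between the responses, where array weights gave −0.025. Lama2 between the overloaded ventricles became 0.086 with the atrial covariate and 0.11 without both RV libraries. Span removal turned Lama2 for VO in the RV to 0.0012 and Utrn between the sham ventricles from −0.21 to 0.079. With 1 library left out, Sgca ran from −0.059 to 0.12 between the sham ventricles, −0.066 to 0.037 for VO in the LV, −0.18 to 0.092 in the RV, −0.068 to 0.20 between the overloaded ventricles and −0.10 to 0.17 between the responses. Lama2 ran from −0.16 to 0.11 and Sgcb from −0.12 to 0.00035 between the overloaded ventricles, and Dtna from −0.38 to 0.012 for VO in the RV. Depth limits Sgcd (58 to 259 reads) and Sntb1 most.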
